A study of Mus musculus with 6 samples.

Results

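Chemokine receptors decide where a T cell goes. The 7 receptor genes described here, Cxcr3, Cxcr4, Cxcr5, Cxcr6, Ccr2, Ccr9 and Cx3cr1, were picked by gene symbol from a table of 17744 genes, and all 7 are listed in it. The cells were CD8 T cells sorted from mouse spleen by CD45, CD3 and CD8a, in 3 control libraries, whose genotype is given as wt, and 3 libraries from animals given focused ultrasound (fus irradiation in the labels), here called ultrasound libraries. For the treated samples the genotype field repeats the treatment. Strain, age, dose and interval after treatment are not given in the sources used here, nor is whether each library came from 1 animal, so p-values measure the spread between these samples. The study's title concerns activation of the spleen's immune function, and the comparison asks which genes differ after ultrasound.

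Chemokine receptors are G protein-coupled receptors that span the membrane 7 times and signal mainly through inhibitory G proteins to steer cells along gradients of chemokines. Naive T cells home to lymphoid tissue, and activated cells gain receptors for inflamed tissue, so these genes are widely used to tell T cell states apart. Several of them are also made by other spleen cells: Ccr2 and Cx3cr1 by monocytes, Cxcr5 by B cells and follicular helper T cells, and Ccr9 by plasmacytoid dendritic cells.

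The libraries hold 35024080 to 38113103 reads assigned to genes, recovered from the deposited values. The 7 genes had 500 to 15150 reads per library, so none was near the floor of 3 reads, and all 7 passed the filter on low values. Levels are in FPKM, fragments scaled to gene length and library size, which can be compared between genes. Cd8a, the gene of a sorting marker, lay between 251 and 314 FPKM, and Cd8b1, not named among the sorting markers, between 438 and 562. A list of 9 T cell identity genes includes those of CD45, CD3 and CD8a. Its median log2 difference from the control mean was -0.26, 0.03 and -0.12 in ultrasound 1, 2 and 3. The ultrasound libraries were unlike each other. Mitochondrial genes took 0.954% and 0.937% of reads in ultrasound 2 and 3, against 2.19% in ultrasound 1 and 2.05% to 2.70% in the controls, and ultrasound 1 lay on the other side of the controls from ultrasound 2 and 3 for several genes below. Each result is therefore also given without ultrasound 1, or for ultrasound 1 alone, where that changes it.

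In control cells Cxcr4 was the most abundant of the 7, at 112 ± 32.0 FPKM (SD, n = 3), followed by Cxcr3 at 48.4 ± 1.90 and Cxcr5 at 23.9 ± 1.16 FPKM. The ranges of these 3 did not overlap. Cxcr6 at 12.9 ± 2.27, Ccr2 at 11.4 ± 3.95 and Ccr9 at 10.2 ± 0.314 FPKM overlapped each other in range, below Cxcr5 and above Cx3cr1. Cx3cr1 was lowest, at 3.96 ± 0.259 FPKM, below every other receptor in each control. In the ultrasound libraries the order was Cxcr4, Cxcr3, Cxcr5, Ccr2, Cx3cr1, Cxcr6 and Ccr9, and the ranges of all neighbours overlapped except those of Cxcr6 and Ccr9. Cxcr4 made up 49.8% of the summed FPKM of the 7 receptors on average in controls and 29.3% in ultrasound libraries. Over the same groups the share of Ccr2 was 5.22% and 13.2%, and that of Cx3cr1 1.80% and 8.90%.

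Of the 7 receptors, only Ccr2 passed the test between groups, and it rose. Genes were tested with limma on log2(FPKM + 1), and a gene passed at a Benjamini-Hochberg adjusted p under 0.05 over all 10655 genes tested. By that rule 8.11% of all genes passed, 6.55% higher and 1.56% lower, so 1 of 7 is close to the background. With median-of-ratios factors Ccr2 again was the only receptor to pass, where 4.10% of genes did (2.75% higher and 1.35% lower), and so it was with upper-quartile factors, at 5.85% (4.05% and 1.80%). Without control 1 it was 5.32%. In the authors' deposited table q under 0.05 was reached by 3 of the 7 and 12.3% of all genes (7.30% higher and 4.98% lower). The log2 change lay above 0 for 5 of the 7, with a median of 0.37, against 61.7% and a median of 0.09 over all genes. All 3 ultrasound libraries lay outside the control range in the same direction for Ccr2, Cx3cr1 and Cxcr4, which is 3 of 7, where 34.8% of all genes did so. Ultrasound 1 lay below all controls for 4 receptors (Cxcr3, Cxcr4, Cxcr5 and Ccr9; 23.1% of all genes) and above them for Ccr2 and Cx3cr1 (44.6%). Ultrasound 2 and 3 both lay above all controls for 5 receptors (Cxcr3, Cxcr5, Cxcr6, Ccr2 and Cx3cr1; 45.9% of all genes) and below them for Cxcr4 (27.4%).

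**Figure D1:**
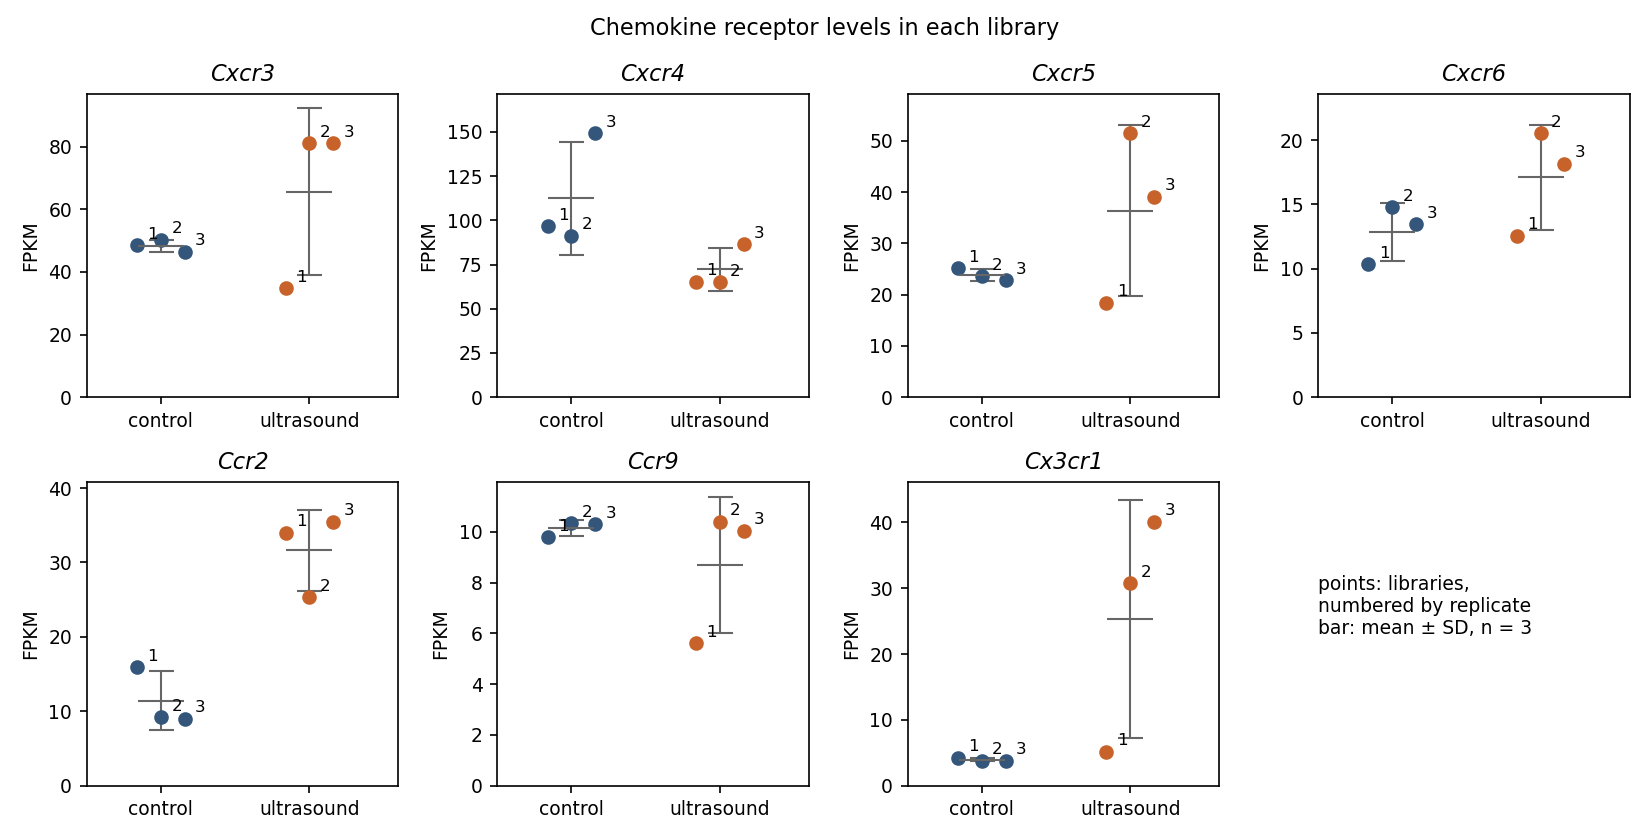
FPKM (vertical axes, from 0) of each receptor in 3 control and 3 ultrasound libraries; points are libraries numbered by replicate, and bars are the mean ± SD (n = 3). Ccr2 and Cx3cr1 lie above and Cxcr4 below every control in all ultrasound libraries, while ultrasound 1 lies below the controls and ultrasound 2 and 3 above them for Cxcr3 and Cxcr5.

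Ccr2 (NCBI Gene 12772) encodes the receptor for Ccl2 and related chemokines, which draws monocytes and effector T cells to inflamed tissue. It had 15.97, 9.25 and 9.03 FPKM in controls 1, 2 and 3, and 34.0, 25.3 and 35.5 FPKM in ultrasound 1, 2 and 3. Every ultrasound library was higher than every control, and control 1 was the highest of the controls. The mean went from 11.4 ± 3.95 to 31.6 ± 5.49 FPKM (SD, n = 3 each), or 2.77-fold. Its log2 change was 1.42 with a standard error of 0.23 and a 95% interval of 0.87 to 1.98 (limma adjusted p = 0.0305), rank 188 from the top among the genes tested. In the authors' deposited table the log2 change of Ccr2 is 1.35 with q 6.28e-05.

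The size of the Ccr2 change was stable, at 1.29 to 1.67 over 15 alternatives, but its call was not. Left out in turn, control 2, control 3, ultrasound 2 and ultrasound 3 gave adjusted p of 0.159, 0.144, 0.0660 and 0.102 (limma), and in each of these fits 0.00% of all genes passed. Without any filter on low values it was 0.0592. Ultrasound 1 alone against the controls gave a log2 change of 1.54. Values for ultrasound 1 alone come from a fit with 1 library in that arm, which is assumed to vary like the controls and ultrasound 2 and 3. They are given as values with no test, although 1.41% of all genes passed in that fit.

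Markers of monocytes moved with Ccr2. All 14 genes of a monocyte list had log2 changes above 0 (61.7% of all genes), with a median of 1.76. Of these, 10 passed the test as higher (6.55% of all genes). For 12 of the 14 the lowest ultrasound value exceeded the highest control (25.9% of all genes). The summed FPKM of the list ran from 701 to 1081 in controls and from 2500.1 to 4038 in ultrasound libraries. No marker was at 0 in any library. The 3 most abundant were Lyz2, Ly6c2 and Chil3. Lyz2, the lysozyme of myeloid cells, went from 207 to 499 FPKM in controls to 1430.2 to 2721 FPKM in ultrasound libraries. Ly6c2, which CD8 T cells make too, had 324 to 418 FPKM in controls and 285 to 504 FPKM in ultrasound libraries. Within a library Ccr2 was 0.0320 to 0.0443 times Lyz2 in controls and 0.0130 to 0.0238 times Lyz2 in ultrasound libraries. Against Csf1r, the receptor for macrophage colony-stimulating factor, it was 0.238 to 0.296 in controls and 0.334, 0.187 and 0.178 in ultrasound 1, 2 and 3. All 10 red pulp macrophage genes had log2 changes above 0 (61.7% of all genes), with a median of 0.88. Of these, 2 passed as higher (6.55% of all genes). The part of these cells in the rise of Ccr2 was not tested. In sorted bulk RNA, more cells of a type and more RNA per cell cannot be told apart.

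Cx3cr1 (NCBI Gene 13051) encodes the fractalkine receptor, known for marking patrolling monocytes and cytotoxic effector CD8 T cells. It had 4.26, 3.80 and 3.81 FPKM in controls 1, 2 and 3, against 5.18, 30.8 and 40.1 FPKM in ultrasound 1, 2 and 3. The controls agreed closely, and ultrasound 1 lay just above them while ultrasound 2 and 3 were far higher. With 2.02 and a standard error of 0.66 it had the largest log2 change of the 7, but the interval was wide, from 0.45 to 3.59, and it did not pass (limma adjusted p = 0.102). Ultrasound 1 was 1.31 times the control mean, and the mean of ultrasound 2 and 3 was 8.96 times. Without ultrasound 1 the log2 change was 2.87 (limma adjusted p = 3.46e-05), in a fit where 53.7% of all genes passed (34.1% higher and 19.7% lower). In the authors' deposited table Cx3cr1 has a log2 change of 2.55 and q 0.0127. The RefSeq span of Cx3cr1 overlaps that of Gm33858 by 5035 bases, and the limit on strand given below for Cxcr6 holds for it. Gm33858 had 0.174 to 0.371 FPKM in controls and 0.471 to 1.154 FPKM in ultrasound libraries, all above every control. It did not enter the test, and its part in the level of Cx3cr1 was not tested.

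By their medians, the monocyte list was high in all ultrasound libraries, while the effector and NK lists were high in ultrasound 2 and 3 alone. Relative to the control mean, the monocyte list lay at 1.40, 1.59 and 2.25 (median log2 difference) in ultrasound 1, 2 and 3, whereas Cx3cr1 lay at 0.32, 2.68 and 3.05. The list of effector and memory CD8 T cell genes lay at -0.24, 0.60 and 0.68, and that of NK cells at -0.19, 1.77 and 1.24. Of 16 effector and memory genes, 2 passed, Gzmb and Cd44, both higher, where 6.55% of all genes were called higher. In all ultrasound libraries 4 of the 16, Gzmb and Cd44 among them, lay above every control (25.9% of all genes). Another 2 lay below every control (8.96% of all genes), so the list was mixed. Of 8 NK cell markers 5 were tested and 1 passed, Klrb1c, which lay above every control in all ultrasound libraries. Their summed FPKM was 25.0 to 34.8 in controls, and 27.7, 207 and 106 in ultrasound 1, 2 and 3, led by the granzyme gene Gzma, and no NK marker was at 0. Cx3cr1 exceeded Ccr2 in ultrasound 2 and 3, where it was 1.22 and 1.13 times Ccr2, against 0.152 in ultrasound 1 and 0.267 to 0.422 in controls. Which cells carried the transcript was not tested.

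Cxcr3 (NCBI Gene 12766), the receptor for the interferon-induced chemokines Cxcl9 and Cxcl10, guides effector and memory CD8 T cells into inflamed tissue. It had 48.4, 50.3 and 46.4 FPKM in controls 1, 2 and 3, and 34.7, 81.0 and 81.0 FPKM in ultrasound 1, 2 and 3. Ultrasound 1 lay below every control while ultrasound 2 and 3 lay above, so the groups overlapped. The log2 change was 0.33 with a standard error of 0.32 and an interval of -0.42 to 1.08 (limma adjusted p = 0.478). The log2 change was -0.47 for ultrasound 1 alone. Without ultrasound 1 it was 0.73 (limma adjusted p = 0.000415), in a fit where 53.7% of all genes passed. Set against the median of 9 T cell identity genes in the same library, Cxcr3 stood at -0.21, 0.70 and 0.85 on the log2 scale in ultrasound 1, 2 and 3, so the split remained.

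Cxcr6 (NCBI Gene 80901), the receptor for Cxcl16, is known for resident memory T cells of liver and lung. Its values were 10.4, 14.8 and 13.5 FPKM in controls 1, 2 and 3, and 12.6, 20.6 and 18.2 FPKM in ultrasound 1, 2 and 3. Ultrasound 1 lay within the controls, and ultrasound 2 and 3 above them. The log2 change of 0.37 had a standard error of 0.20 and an interval of -0.11 to 0.85 and did not pass (limma adjusted p = 0.242). It was -0.02 for ultrasound 1 alone. Without ultrasound 1 it was 0.57 (limma adjusted p = 0.0171), in a fit where 53.7% of all genes passed. Cxcr6 lies inside the gene Fyco1, where 0 of its exons overlap a Fyco1 exon in GENCODE M21. Whether the counting used strand is not given in the sources used here, so reads of overlapping genes may not be told apart. Fyco1, an adaptor for vesicle transport, had 9.18 to 11.5 FPKM in controls and 8.23 to 9.80 FPKM in ultrasound libraries.

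Cxcr5 (NCBI Gene 12145), the receptor for Cxcl13, takes B cells and follicular helper T cells into B cell follicles. Its RefSeq span overlaps that of Bcl9l by 120 bases, and the same limit on strand holds for it. Bcl9l had 32.8 to 38.0 FPKM in controls and 29.2 to 30.7 FPKM in ultrasound libraries. Cxcr5 had 25.2, 23.7 and 22.9 FPKM in controls 1, 2 and 3, against 18.4, 51.5 and 39.1 FPKM in ultrasound 1, 2 and 3. As for Cxcr3, ultrasound 1 was below every control and the other ultrasound libraries above. A split of this form, noticed after the values were seen, held for 2 of the 7 receptors and 7.34% of all genes. The log2 change of Cxcr5 was 0.47 with a standard error of 0.34 (interval -0.33 to 1.27; limma adjusted p = 0.354). It was -0.36 for ultrasound 1 alone. Without ultrasound 1 it was 0.88 (limma adjusted p = 0.00125), in a fit where 53.7% of all genes passed. Set against the T cell identity genes, Cxcr5 stood at -0.098, 1.046 and 0.810 on the log2 scale in ultrasound 1, 2 and 3. The controls then stood at 0.110, -0.045 and -0.090. On this scale ultrasound 1 lay only just below the lowest control, while ultrasound 2 and 3 stayed well above the controls.

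B cell genes showed the same split. Of 11 listed markers 9 were in the table and 8 were tested. All 8 had log2 changes above 0 (61.7% of all genes), with a median of 0.80, and 0 passed. Their summed FPKM was 216 to 329 in controls and 160.0, 852 and 739 in ultrasound 1, 2 and 3, and no marker in the table was at 0. Cd79a and Cd79b, the signalling chains of the B cell receptor, were the most abundant. Cxcr5 was 0.200 to 0.302 times Cd79a in controls, and 0.283, 0.152 and 0.131 times Cd79a in ultrasound 1, 2 and 3. Of 8 genes of CD4 and follicular helper T cells, 0 passed, with a median log2 change of -0.15. The part of B cells in the level of Cxcr5 was not tested.

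Cxcr4 (NCBI Gene 12767) binds Cxcl12 and holds lymphocytes in bone marrow and other niches. It had 96.6, 91.4 and 149 FPKM in controls 1, 2 and 3, and 65.4, 65.0 and 86.4 FPKM in ultrasound 1, 2 and 3. All ultrasound libraries lay below all controls, and control 3 stood apart from the other controls. The mean was 112 ± 32.0 in controls and 72.2 ± 12.3 FPKM in ultrasound libraries (SD, n = 3 each). Its log2 change was -0.61 with a standard error of 0.21 and an interval of -1.11 to -0.10, and it did not pass (limma adjusted p = 0.114). The direction was the same in 15 of 15 alternatives, at -0.76 to -0.39, and without control 3 it was -0.39 (limma adjusted p = 0.252). In the authors' deposited table Cxcr4 has a log2 change of -0.76 and q 0.0248. Within a library the ratio of Cxcr3 to Cxcr4 was 0.311 to 0.550 in controls and 0.531, 1.25 and 0.937 in ultrasound 1, 2 and 3.

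Ccr9 (NCBI Gene 12769), the receptor for Ccl25, is known for homing to the small intestine and for thymocytes. Its levels were the most even among the controls, 9.80, 10.4 and 10.3 FPKM in controls 1, 2 and 3. Ultrasound 2 and 3 had 10.4 and 10.1 FPKM and ultrasound 1 had 5.62 FPKM. The log2 change was -0.24 with a standard error of 0.21 and an interval of -0.75 to 0.26 (limma adjusted p = 0.437). It was -0.75 for ultrasound 1 alone and 0.01 without ultrasound 1 (limma adjusted p = 0.922). Set against the T cell identity genes, Ccr9 stood at -0.49, 0.00 and 0.11 in ultrasound 1, 2 and 3. Markers of plasmacytoid dendritic cells, without Ccr9, summed to 63.8 to 89.7 FPKM in controls and to 50.8, 222 and 203 FPKM in ultrasound 1, 2 and 3. None was at 0, but 1 in control 2, 1 in control 3 and 2 in ultrasound 1 had 3 reads or fewer. Of these 9 markers 4 were tested, 2 with log2 changes above 0 and 2 below, and 0 passed. The RefSeq span of Ccr9 overlaps that of Gm17021 by 6197 bases, and the limit on strand given for Cxcr6 holds for it. Gm17021 had at most 0.418 FPKM in any library.

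**Figure D2:**
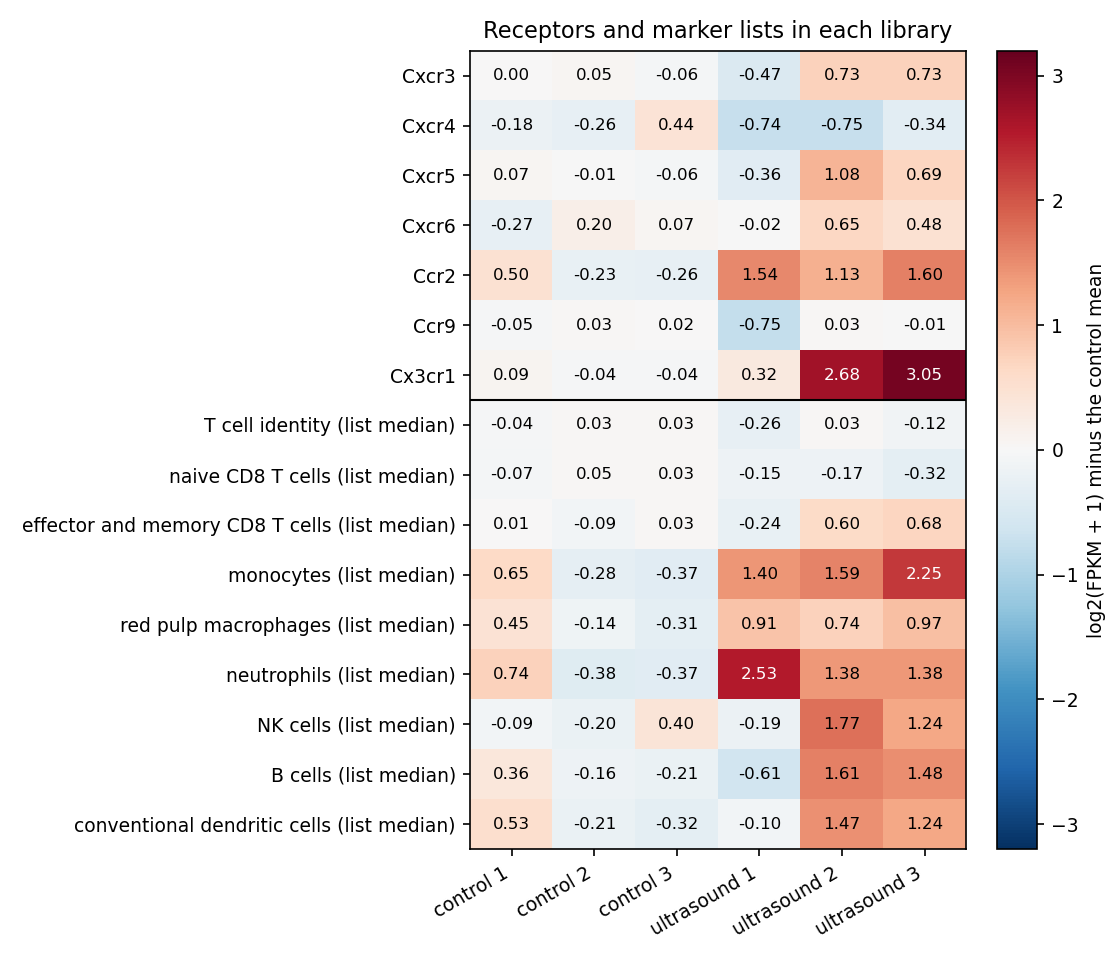
Colour and printed value give log2(FPKM + 1) minus the control mean in each library, for the 7 receptors (upper rows) and, as a median over tested genes, for marker lists (lower rows). Ccr2 and the monocyte list are above 1.1 in all ultrasound libraries, whereas Cxcr3, Cxcr5 and the B cell list are below 0 in ultrasound 1 and above 0.6 in ultrasound 2 and 3.

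The receptors also differ in where and how they are encoded. Per RefSeq on GRCm38.p6, the assembly called mm10, all 7 are protein-coding. Cxcr4 lies on chromosome 1 (128588199 to 128592299) and Cxcr3 on chromosome X (101731535 to 101734147). The other 5 are on chromosome 9: Cxcr5 at 44511787 to 44526444, Cx3cr1 at 120048683 to 120068296, Ccr9 at 123767211 to 123783457, Cxcr6 at 123806477 to 123811754 and Ccr2 at 124101918 to 124109140. The listed gene before Ccr2 on the chromosome is Ccr3, another chemokine receptor gene, which also passed the test and was higher.

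RefSeq start sites matched 6 of the 7 genes, and the 250 bases before the start set Cxcr4 apart from the others. This window holds 19 CpG pairs in Cxcr4, more than in 80.3% of 32817 such windows, and 61.2% G or C. The other 5 windows hold 1 to 4 CpG pairs, with 1 in Ccr2, 3 each in Cxcr3, Cxcr6 and Ccr9, and 4 in Cx3cr1, against a median of 6. The most abundant receptor is printed beside Cxcr6 to show this contrast, as the stretch of each window free of annotated exons, 5′ to 3′ on the gene's strand, with CpG pairs in capitals. The stretches are chr1:128592300-128592549 on the minus strand for Cxcr4 and chr9:123806227-123806474 on the plus strand for Cxcr6.
Cxcr4: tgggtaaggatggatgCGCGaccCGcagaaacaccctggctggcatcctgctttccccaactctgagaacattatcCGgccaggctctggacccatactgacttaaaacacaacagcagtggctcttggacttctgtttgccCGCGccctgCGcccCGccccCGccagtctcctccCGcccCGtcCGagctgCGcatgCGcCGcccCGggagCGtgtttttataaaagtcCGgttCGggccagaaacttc
Cxcr6: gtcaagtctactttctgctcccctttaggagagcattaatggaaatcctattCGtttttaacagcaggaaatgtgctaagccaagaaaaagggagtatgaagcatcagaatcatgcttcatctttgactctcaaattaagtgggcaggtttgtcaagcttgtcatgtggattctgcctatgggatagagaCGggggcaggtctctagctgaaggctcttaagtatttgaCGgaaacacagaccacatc
On both strands of these windows the T-box half-site AGGTGT was found in 0 of the 6 receptors, and in 11.8% of all windows. The KLF core CACCC was found once each in Cxcr4, Ccr9 and Cx3cr1 and in 52.0% of all windows. These matches describe letters only. Bases free of annotated exons numbered 250 in Cxcr4, 248 in Cxcr6, 208 in Ccr9, 128 in Cxcr3, 17 in Ccr2 and 0 in Cx3cr1. The CpG and motif counts of whole windows therefore also cover exons. The Ccr2 window, 124101933 to 124102182, lies inside the RefSeq span given above for that gene.

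Other chemokine receptors were looked at on the same scale. Of 17 listed, 16 are in the table and 9 were tested, and 2 passed, both higher, where 6.55% of all genes were called higher. Cxcr2, the neutrophil receptor, had 3.51, 0.951 and 1.25 FPKM in controls 1, 2 and 3, and 7.90, 8.13 and 8.62 FPKM in ultrasound 1, 2 and 3 (log2 change 1.77, standard error 0.30, limma adjusted p = 0.0311). Ccr3, the eotaxin receptor, had 2.28 to 3.34 FPKM in controls and 4.78 to 5.94 FPKM in ultrasound libraries (log2 change 0.76, standard error 0.14, limma adjusted p = 0.0316). Both calls were lost when control 2, control 3, ultrasound 2 or ultrasound 3 was left out, at adjusted p of 0.0867 to 0.159. All 10 neutrophil markers had log2 changes above 0 (61.7% of all genes), with a median of 1.91, and 3 passed. Their summed FPKM was 188 to 575 in controls and 2321, 646 and 680 in ultrasound 1, 2 and 3, led by S100a9, S100a8 and Ngp, and none was at 0. Their part in Cxcr2 was not tested.

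The other receptors described here did not pass in the main analysis. Ccr7, which brings naive T cells into lymph nodes, was higher than each of the 7 in every library, with 168 to 211 FPKM in controls and 140 to 148 FPKM in ultrasound libraries (log2 change -0.36, limma adjusted p = 0.0877). Every ultrasound library lay below every control for it. Ccr1, shared by monocytes and neutrophils, had 0.676 to 2.72 FPKM in controls and 3.62 to 10.6 FPKM in ultrasound libraries (log2 change 1.49, limma adjusted p = 0.0717). Ccr4, Ccr6, Ccr8 and Ccrl2 had log2 changes of 0.50, 0.47, -0.24 and -0.44 with limma adjusted p from 0.108 to 0.634. Without ultrasound 1, Ccr1, Ccr4, Ccr6, Ccr7 and Ccr8 passed (limma adjusted p of 0.00545 to 0.0423), where 53.7% of all genes did. The log2 change of Ccr8 was then -0.65, against 0.57 for ultrasound 1 alone. In the authors' deposited table q was 0.00251 for Ccr7 and 0.0107 for Ccr1. Ccr6, a receptor of B cells and some T cells, divided the ultrasound libraries as Cxcr5 did, with 3.69, 12.1 and 9.33 FPKM in ultrasound 1, 2 and 3 and 3.93 to 6.94 FPKM in controls.

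**Figure D3:**
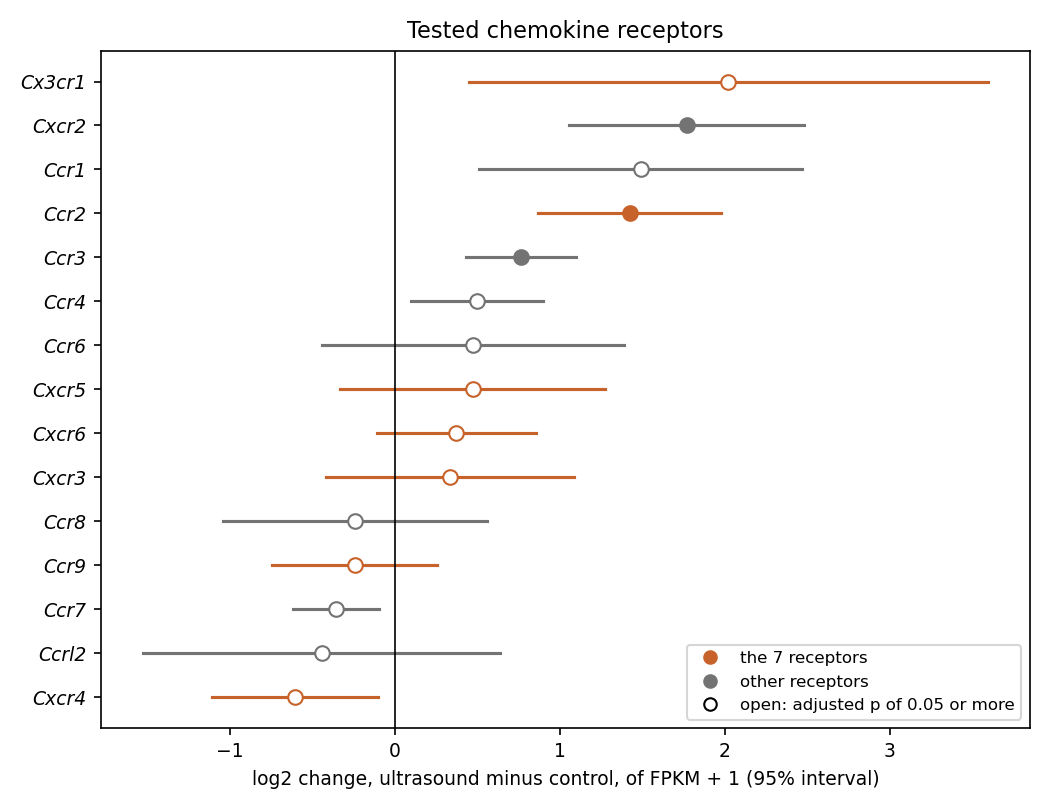
Log2 change of FPKM + 1, ultrasound minus control, with its 95% interval from limma, for chemokine receptors that were tested; orange marks the 7 receptors, and filled points passed an adjusted p of 0.05. Ccr2, Cxcr2 and Ccr3 are the filled points, at 1.42, 1.77 and 0.76, and the interval of Cx3cr1 is the widest.

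Transcripts of the receptors' ligands were low or uneven in these libraries. Most are known as products of stromal, endothelial or myeloid cells. Of 12 listed, 10 are in the table, 4 were tested and 0 passed. Cxcl10, a ligand of Cxcr3, had 40.2, 24.4 and 19.5 FPKM in controls 1, 2 and 3, and 30.2, 6.78 and 9.96 FPKM in ultrasound 1, 2 and 3 (log2 change -1.004, limma adjusted p = 0.226). Cxcl9 and Cxcl16, ligands of Cxcr3 and Cxcr6, had log2 changes of 0.70 and 0.50, and Ccl2, a ligand of Ccr2, 0.43, with limma adjusted p of 0.309 to 0.610. The groups overlapped for all 4.

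Of 33 tested genes that carry or end the receptors' signal, 3 rose and 2 fell, where 6.55% and 1.56% of all genes did. Their median log2 change was 0.21, against 0.09 over all genes. The falls were Rgs16 and Rgs2, which speed up the end of G protein signalling, with log2 changes of -2.54 and -0.81 (limma adjusted p = 0.0304 and 0.0333). Rgs16 went from 40.8 to 51.5 FPKM in controls to 13.9, 4.47 and 5.21 FPKM in ultrasound 1, 2 and 3. The rises were Grk5, a kinase that marks active receptors, Arrb1, a beta-arrestin that uncouples them, and Plcb3, a phospholipase below the G protein, with log2 changes of 1.08, 0.84 and 0.82 (limma adjusted p = 0.0297, 0.0311 and 0.0325). Arrb1 had 7.39 to 7.54 FPKM in controls and 11.5 to 17.3 FPKM in ultrasound libraries. Gnai2, the main inhibitory G protein subunit of lymphocytes, had 273 to 299 FPKM in controls and 315 to 470 FPKM in ultrasound libraries and did not pass (limma adjusted p = 0.0959).

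Of 12 transcription factors known to act on these receptors or on the T cell states they mark, 1 passed, a share close to the 8.11% of all genes. Klf2, which maintains egress and quiescence, fell from 653 to 751 FPKM in controls to 477, 299 and 347 FPKM in ultrasound 1, 2 and 3 (log2 change -0.92, limma adjusted p = 0.0335). Tbx21, the T-bet gene that acts on Cxcr3 and chosen here after its values were seen, had 20.7 to 24.7 FPKM in controls and 15.5, 34.4 and 35.5 FPKM in ultrasound 1, 2 and 3 (limma adjusted p = 0.577). Its order over the ultrasound libraries was close to that of Cxcr3, and a link between the genes was not tested. Over the 12 factors, 6 log2 changes lay above 0 and 6 below. For 5 of them all ultrasound libraries lay below every control (8.96% of all genes), and for 1 above (25.9%).

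Among 12 tested genes of egress and adhesion, 2 rose and 2 fell, where 6.55% and 1.56% of all genes did. S1pr1, the receptor by which T cells leave lymphoid organs, fell from 154 to 158 FPKM to 101 to 119 FPKM (log2 change -0.50, limma adjusted p = 0.0320), and Cd69, which removes S1pr1 from the surface, fell by 2.48 on the log2 scale (limma adjusted p = 0.0442). The rises were Itgb2, the beta subunit of LFA-1, and Cd44, the hyaluronan receptor, with log2 changes of 0.57 and 0.71 (limma adjusted p = 0.0463 and 0.0389).

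For each receptor the 3 tested genes with the most similar profile over the 6 libraries were found, by the root mean square difference of log2(FPKM + 1) after each gene was centred on its mean. These are descriptions from 6 libraries and 10655 genes. Cmklr1, Apoe and S100a4 were nearest to Ccr2, at 0.083, 0.085 and 0.085, against a median of 0.75 over all genes. Cx3cr1 had S1pr5, Cd300e and Ly6i nearest at 0.27 to 0.30, against a median of 1.28. S1pr5, a receptor for sphingosine 1-phosphate, had 2.17 to 2.64 FPKM in controls and 2.86, 14.4 and 17.8 FPKM in ultrasound 1, 2 and 3. Nearest to Cxcr3 were Ptp4a3, Cdc25b and Tcf19 (0.046 to 0.072), and Ccnf was among those nearest to Cxcr5 (0.083), next to the less well known Gm19897 and A530040E14Rik. Cxcr6 had Hs1bp3, Sytl2 and Mterf4 (0.041 to 0.055), and Ccr9 had Ms4a4c, St3gal6 and Ifi206 (0.069 to 0.088). For Cxcr4 they were Gm51814, Gm36220 and the G protein-coupled receptor gene Gpr132 (0.10 to 0.18). Among the 7 receptors themselves, Cxcr3 and Cxcr5 were the closest pair, at 0.14, and the receptor nearest to Cx3cr1 was Cxcr5, at 0.92.

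**Figure D4:**
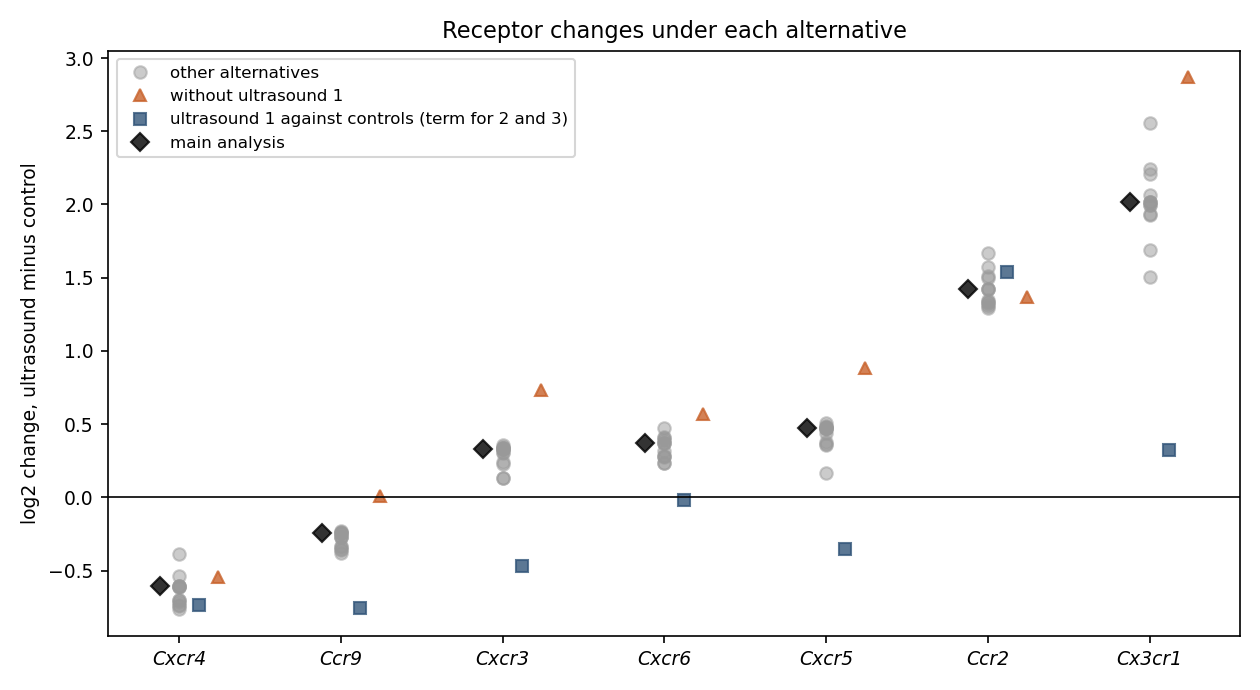
Log2 change, ultrasound minus control, of each receptor in the main analysis and under 15 alternatives; squares compare ultrasound 1 alone with the controls, and triangles leave ultrasound 1 out. Ccr2 stays between 1.29 and 1.67 and Cxcr4 between -0.76 and -0.39, while Cxcr3 and Cxcr5 lie on both sides of 0.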

How the data were processed

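RNA-seq of sorted splenic CD8 T cells was compared between 3 control and 3 ultrasound libraries, grouped by sample title. HISAT2, HTSeq, DESeq2, R 3.2.0 and the build mm10 are named in the submitters' processing notes. The deposited table gives FPKM per library. Per the file headers it also holds the authors' mean signal (BaseMean) of each group, a fold change (ratio), its log2, a p-value and a q-value.

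FPKM and group means obey a linear relation (largest relative deviation 3.13e-07), which gives whole reads. Of 42756 values under 200 reads, 100% lay within 0.05 of a whole number. Simulated data returned 100% over 3995 genes. Floors of 3 reads cover counting error only.

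The main test was limma 3.58.1 (trend, robust; R 4.3.3) on log2(FPKM + 1), two-sided, for the 10655 genes that reached an FPKM of 1 in 3 or more libraries. This scale understates changes of low genes. The test was tried on simulated libraries of this comparison with 200 altered genes. At dispersion 0.01 (10582 genes) it found 99.5% of them and made 16 false calls. At 0.05 (10556 genes) it found 58% of 2-fold and 99% of 3-fold changes and made 13. Simulated replicates of a group vary alike, whereas the ultrasound libraries were unlike each other, so these rates need not hold for the real comparison.

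Members, lists and alternatives were chosen with earlier results of these data known. Named genes are the 7 receptors, tested receptors and ligands, genes of the function lists with adjusted p under 0.05, the 3 most abundant markers of a list where described, the 3 nearest profiles and neighbouring genes. Csf1r, Gnai2, Tbx21, Cd8a, Cd8b1, Gzmb, Cd44 and Klrb1c were also named after their values were seen. Some genes that meet this rule are not reported here, although they count in the totals of their lists. Sequences and coordinates are from RefSeq (GRCm38.p6), exons from GENCODE M21. Tables and figures were made in Python 3.11.15 with pandas 2.3.3, numpy 2.4.6 and matplotlib 3.10.9.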

Additional observations from a re-analysis of the deposited data

Results flagged for a closer look

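Signal appeared in 2 chemokine receptor genes that were too low to be tested. Cxcr1, a neutrophil receptor, had at least 0.256 FPKM in each ultrasound library (13 reads or more), above the highest control at 0.188 FPKM (9 reads). Ccr1l1 had at least 0.0494 FPKM (4 reads or more) against at most 0.0265 FPKM in controls (2 reads). Both lie close to the floor of 3 reads.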

How the results depend on the processing

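The main analysis called 1 of the 7 receptors, 2 of the other receptors and 864 genes in all (698 higher and 166 lower). Without a filter on low values 0, 0 and 0 were called, with 4216 genes at an unadjusted p under 0.05. Median-of-ratios size factors gave 437 genes, 293 higher and 144 lower, of which 426 were shared with the main result, and upper-quartile factors gave 431 higher and 192 lower. Both left Ccr2 called. Giving ultrasound 2 and 3 a term of their own, so that only ultrasound 1 is set against controls, gave 0 other receptors and 150 genes. That arm holds 1 library, assumed to vary like the others, so this fit gives values and no replicated test. No call among the 7 receptors is drawn from it for that reason. Its log2 change was -0.75 for Ccr9, against -0.24 in the main analysis, and 1.54 for Ccr2, against 1.42. In the authors' deposited table q under 0.05 was reached by 3 of the 7 receptors (Cxcr4, Ccr2 and Cx3cr1), 5 other receptors and 2179 genes.

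Leaving out 1 library gave from 0 to 5 of the 7 receptors, from 0 to 7 other receptors and from 0 to 5727 genes. The highest counts came without ultrasound 1, where Cxcr3, Cxcr5, Cxcr6, Ccr2 and Cx3cr1 passed, as did 53.7% of all genes. Without control 1 Ccr2 passed and 567 genes did. Without control 2, control 3, ultrasound 2 or ultrasound 3, no fit called any gene (0), while 1962, 2154, 2058 and 1998 had unadjusted p under 0.05.

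Replicate numbers gave no pairing: for numbers 1, 2 and 3 the deviations from group means had correlations of -0.04, 0.05 and 0.06, and not every library correlated best with its own number. Under the replicate block, 0 of the 7 receptors, 0 other receptors and 0 genes passed, 3249 had an unadjusted p under 0.05, and Ccr2 had adjusted p 0.0778.

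Over 105 values for the 7 receptors, 4 reversed in direction: Cxcr3 (-0.47), Cxcr5 (-0.36) and Cxcr6 (-0.017) with the term for ultrasound 2 and 3, and Ccr9, from 0.0095 at its highest to -0.38 at its lowest, among the fits without 1 library. Among other receptors Ccr6 (-0.40), Ccr8 (0.57) and Ccrl2 (0.45) reversed with that term, and Ccrl2 ranged from -0.89 to 0.029 without 1 library. The cause was not tested. A floor of 3 reads limits the low receptors, not the 7.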

Other observations

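Levels of Xcr1, Clec9a and Ackr2 were higher in ultrasound 2 and 3 than in the other libraries. Xcr1, the receptor of cross-presenting dendritic cells, had 1.95 and 1.48 FPKM in ultrasound 2 and 3, against 0.121 in ultrasound 1 and 0.0962 to 0.305 FPKM in controls. Clec9a, a lectin of the same cells, had 4.17 and 3.86 FPKM there and 0.338 to 0.998 FPKM in the other libraries. The scavenging receptor Ackr2 had 3.18 and 2.002 FPKM in ultrasound 2 and 3, 0.125 in ultrasound 1 and 0.5004 to 0.893 FPKM in controls. Cx3cl1, the ligand of Cx3cr1, had 2.05 FPKM in ultrasound 2 and at most 0.0834 FPKM in the other libraries. These genes did not enter the test and were named after their values were seen. Csrnp1, the listed gene before Cx3cr1 on chromosome 9, went the other way, from 75.0 to 94.7 FPKM in controls to 43.0, 14.9 and 16.7 FPKM in ultrasound 1, 2 and 3 (log2 change -1.88, limma adjusted p = 0.0360).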
